A study of Mus musculus with 13 samples.

Results

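Wnt proteins are lipid-modified secreted signals that bind Frizzled receptors at the cell surface. Together with the co-receptors Lrp5 and Lrp6 they stabilise beta-catenin, which then acts with TCF/LEF factors on target genes such as Axin2, and through Frizzled and other receptors they also steer cell polarity and movement. In the vessel wall the pathway is known for roles in smooth muscle growth, calcification and matrix deposition, and soluble antagonists (Frizzled-related proteins, Wif1 and Dickkopf proteins) keep it in check outside the cell. The 42 genes described here are those whose symbol names a Wnt ligand, a Frizzled receptor, a secreted Frizzled-related protein or a Dickkopf protein by family name and number, together with Frzb, Wif1, Lrp5, Lrp6 and Axin2. They comprised 19 Wnt ligands, 10 Frizzled receptors, 2 co-receptors, 10 secreted antagonists and Axin2, out of 21225 genes on the arrays.

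Aortic RNA from male C57BL/6 mice was hybridised to 13 arrays, and the study asked how the mineralocorticoid receptor (MR, the aldosterone receptor) of smooth muscle cells takes part in changes of vascular RNA with age. Young means an age of 3 to 4 months here and aged means 12 months. MR-intact mice, labelled wildtype, gave 3 young and 4 aged arrays, and MR-knockout mice, in which the design text places the deletion in smooth muscle cells, gave 3 young and 3 aged arrays. The sources used here do not give the driver of the deletion, its timing or whether controls carried that driver. Nothing in the labels states that each array is 1 animal, and p-values therefore reflect the scatter among arrays, which may be technical. Sample titles carry an A on all aged and a B on all young arrays, so whatever the letter stands for cannot be told apart from age.

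Values are log2 expression levels, 1 per gene and array, and all differences below are differences of log2 values. Differences were tested with limma on the full set of 21225 genes. A gene counts as called where its p, adjusted by Benjamini and Hochberg's method for that full set within a comparison, was under 0.05. The receptor gene itself, Nr3c2, had a mean level of 6.66 in young MR-intact, 6.26 in young knockout, 7.01 in aged MR-intact and 6.31 in aged knockout aorta. Array medians lay between 5.85 and 5.97. Of the 42 genes, 6 lay in the dimmest tercile of all genes (mean level under 4.64): Wnt1, Wnt3, Wnt6, Wnt7a, Wnt8b and Dkk4. The aged knockout arrays were the most variable group, with a median gene SD of 0.148 against 0.0902 to 0.114 in the other groups. Among them, replicate 2 stood apart: its mean level over 12 smooth muscle markers was 9.75 against 10.24 to 10.62 on the other 12 arrays, over 6 liver markers 6.95 against 4.22 to 5.48, and over 10 Schwann and neuronal markers 7.08 against 5.73 to 6.33. The mean level over 11 B lymphocyte and plasma cell markers was 7.07 to 8.85 on the aged knockout arrays, 6.73 on young knockout replicate 3 and 5.17 to 5.89 on the remaining 9. For skeletal muscle, 14 markers had means of 7.93 and 7.44 on young MR-intact replicates 1 and 2 and 7.51 on young knockout replicate 3, against 5.08 to 6.11 elsewhere. In bulk tissue, fewer cells of a type and less RNA per cell cannot be told apart.

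The sequences upstream of 4 genes that the results below turn on are shown to let a reader see what regulatory letters lie there. Wnt2b was the ligand with the lowest adjusted p with age, Fzd1 and Frzb were the receptor and the antagonist with the lowest unadjusted p between genotypes in aged aorta, and Axin2 is the standard readout of the pathway. Each is the 250 bases before the annotated start in RefSeq (GRCm38.p6), read 5′ to 3′ on the gene's strand. Wnt2b lies on the minus strand at chr3:104961710-104961959, Fzd1 on the minus strand at chr5:4758217-4758466, Frzb on the minus strand at chr2:80447397-80447646 and Axin2 on the plus strand at chr11:108920099-108920348. Capitals mark TCAAAG, which is the TCF/LEF core CTTTGA read on the opposite strand, or AGAACA, the core of a corticosteroid receptor element.
Wnt2b: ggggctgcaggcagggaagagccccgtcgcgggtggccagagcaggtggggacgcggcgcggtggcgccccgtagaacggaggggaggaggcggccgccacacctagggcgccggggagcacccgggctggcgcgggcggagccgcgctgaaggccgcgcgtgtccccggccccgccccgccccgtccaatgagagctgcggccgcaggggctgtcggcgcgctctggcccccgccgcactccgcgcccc
Fzd1: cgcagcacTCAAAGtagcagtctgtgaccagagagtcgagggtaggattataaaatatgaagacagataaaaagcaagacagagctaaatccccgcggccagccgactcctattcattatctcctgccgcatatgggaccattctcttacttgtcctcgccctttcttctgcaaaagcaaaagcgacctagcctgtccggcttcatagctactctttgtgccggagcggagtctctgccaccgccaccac
Frzb: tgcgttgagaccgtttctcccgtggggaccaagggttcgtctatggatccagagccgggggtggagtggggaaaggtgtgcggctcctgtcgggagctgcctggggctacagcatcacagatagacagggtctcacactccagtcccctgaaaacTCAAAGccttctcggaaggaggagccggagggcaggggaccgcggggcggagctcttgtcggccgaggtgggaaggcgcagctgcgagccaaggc
Axin2: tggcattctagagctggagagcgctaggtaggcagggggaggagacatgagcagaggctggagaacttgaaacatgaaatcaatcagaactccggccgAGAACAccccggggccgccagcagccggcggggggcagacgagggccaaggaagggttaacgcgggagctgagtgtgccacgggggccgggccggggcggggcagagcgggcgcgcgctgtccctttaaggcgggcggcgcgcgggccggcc
Fzd1 and Frzb each held the TCF/LEF core once, on the minus strand of the window, and Wnt2b held neither set of letters in a window with 80.8% G and C. Axin2 held AGAACA once and no CTTTGA on either strand. Among the 28 of 42 genes with a window in the RefSeq table (31 windows in all), CTTTGA on either strand was found for Dkk1, Frzb, Fzd1, Wnt11 and Wnt5b, and AGAACA on either strand for Axin2, Dkk2, Wnt5b and Wnt8b. Of all 32851 mouse windows of this length, 13.8% held CTTTGA and 16.1% held AGAACA, and the full palindrome of the receptor element was in 0.00913% of them and in none of the 31. A match of letters is a description of the window and no evidence of binding. Wnt5a, Lrp5 and Lrp6 have no window in the table.

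**Figure D1:**
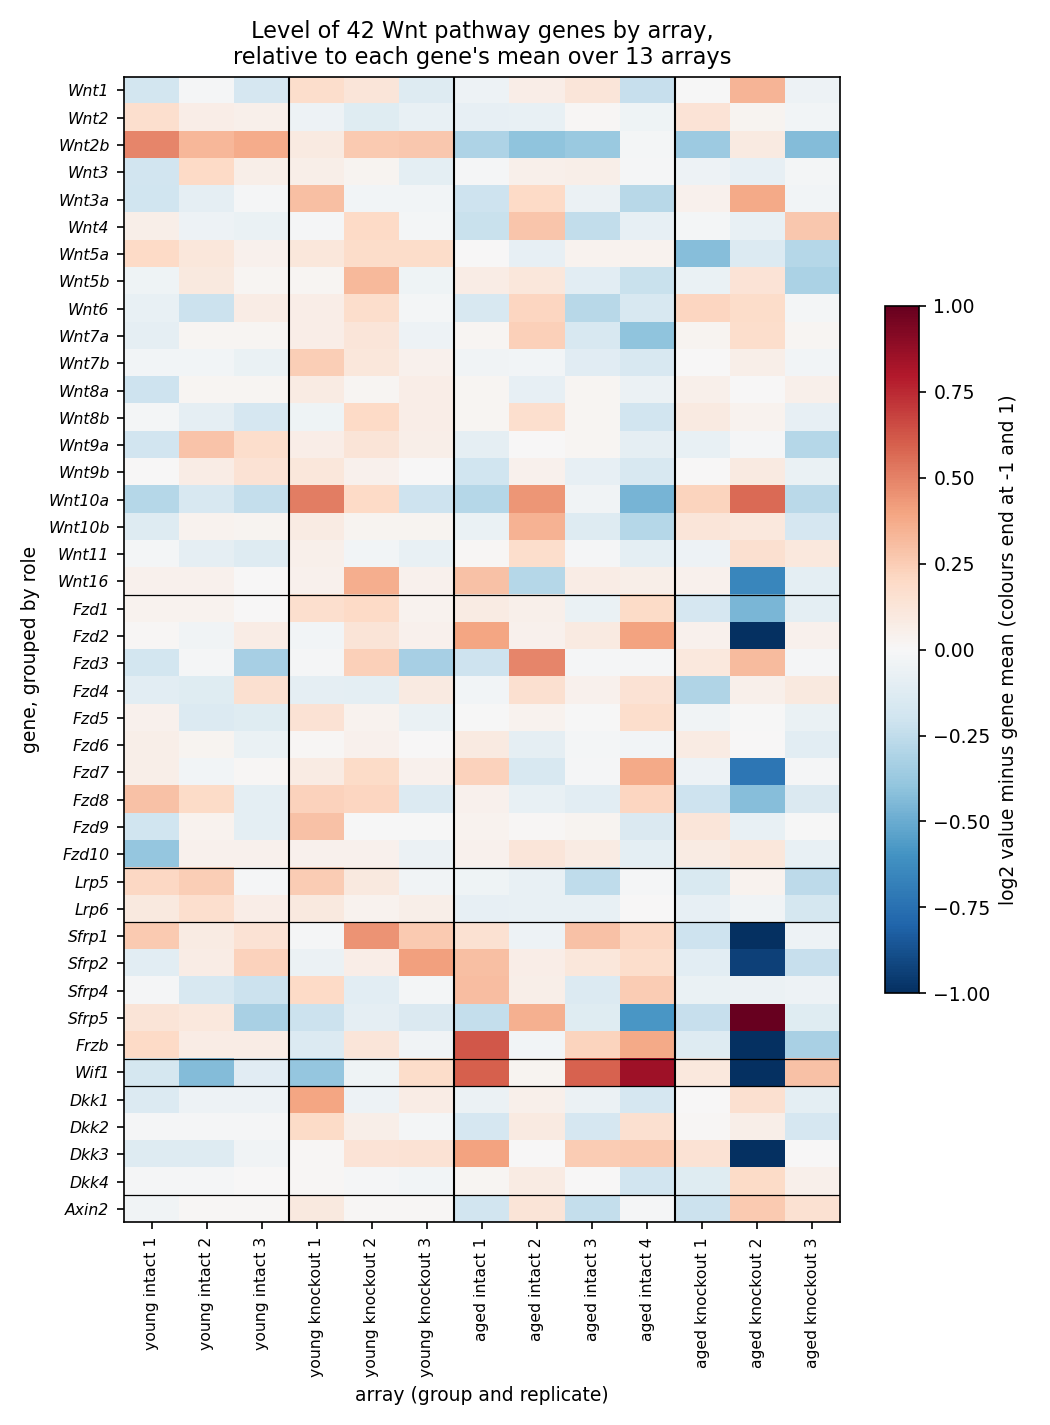
Level of each of the 42 genes (vertical axis, grouped by role) on each of the 13 arrays (horizontal axis, grouped by age and genotype), as the log2 value minus the gene's mean over the 13 arrays; colours end at -1 and 1. Wnt2b is above its mean on all 6 young arrays, and aged knockout replicate 2 is the lowest array for 10 genes, among them Sfrp1, Sfrp2, Frzb, Wif1 and Dkk3.

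The first comparison asked which Wnt pathway genes differed between young and aged aorta. The ligand Wnt2b, which signals through beta-catenin, and the ligand Wnt5a, the best known activator of beta-catenin-independent signalling, fell with age. Averaged over both genotypes, Wnt2b was lower by 0.55 and Wnt5a by 0.28 in aged aorta. No other member of the 42 was called in that average and none was called as higher, and 2 of 42 genes stood against 1.49% of all genes called in either direction.

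Wnt2b had values of 7.04, 6.88 and 6.92 in young MR-intact and of 6.64, 6.81 and 6.82 in young knockout aorta. In aged aorta its values were 6.24, 6.15, 6.18 and 6.53 without the deletion and 6.19, 6.64 and 6.12 with it. Every aged array was thus below every young array; the highest aged value and the lowest young value both round to 6.64, and at the deposited precision the aged one is the lower. The averaged log2 difference was -0.55 (SE 0.09, 95% confidence interval -0.75 to -0.36), with an adjusted p of 0.0117 from limma. An exact permutation test of the array labels within genotype, two-sided and unadjusted, gave p = 0.00143, the smallest that 700 regroupings allow. The lack of overlap fixes that value, so the test adds no support of its own. Wnt5a and Lrp6, which also lacked overlap, gave the same value. Within MR-intact aorta the difference was -0.67 (SE 0.12) with an adjusted p of 0.0587, and within knockout aorta -0.44 (SE 0.13) with an adjusted p of 0.138, both from limma and neither called. Without aged knockout replicate 2 the Wnt2b difference in knockout aorta was -0.60 with an adjusted p of 0.0337. The difference of the age effect between genotypes was 0.23 (95% confidence interval -0.16 to 0.63) and did not pass (limma, adjusted p = 0.745).

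Wnt5a had values of 7.53, 7.45 and 7.38 in young MR-intact and of 7.45, 7.52 and 7.52 in young knockout aorta. Its values were 7.34, 7.25, 7.37 and 7.37 in aged MR-intact and 6.91, 7.20 and 7.05 in aged knockout aorta. The aged knockout arrays were the 3 lowest of all 13, the aged MR-intact arrays came next, and no aged array reached a young one. The averaged difference was -0.28 (SE 0.05, adjusted p = 0.0267 by limma). Within knockout aorta Wnt5a fell by 0.44 (SE 0.08, limma adjusted p = 0.0307), the only member of the 42 called there, where 0.735% of all genes were called. Within MR-intact aorta the difference was -0.12 (SE 0.07, limma adjusted p = 0.733). The difference between these age effects was -0.32 (95% confidence interval -0.55 to -0.08, unadjusted p = 0.0119 by limma), which did not pass after adjustment (adjusted p = 0.609).

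Both calls of Wnt5a were near the threshold. In knockout aorta its adjusted p rose to between 0.0506 and 0.118 when young MR-intact replicate 2, any of the young knockout replicates, or aged MR-intact replicate 1 or 3 was left out, with differences of -0.46 to -0.43. In the average over genotypes the adjusted p rose to between 0.0514 and 0.0763 without young MR-intact replicate 1 or 2, young knockout replicate 1 or 2, or aged MR-intact replicate 1 or 3. The Wnt2b call in the average held without any single array (limma adjusted p of 0.0015 to 0.0411). With the mean of the B lymphocyte markers as a covariate the averaged difference was -0.53 for Wnt2b (adjusted p = 0.161) and -0.24 for Wnt5a (adjusted p = 0.271), and with that of the skeletal muscle markers it was -0.44 (adjusted p = 0.126) and -0.22 (adjusted p = 0.186), so neither gene was called in those limma fits. Fibroblast markers moved in the same direction: of 15, limma called 4 as lower with age in the average and 5 in knockout aorta, and their mean level was 9.53 to 9.55 in young MR-intact, 9.48 to 9.61 in young knockout, 9.30 to 9.43 in aged MR-intact and 8.99 to 9.20 in aged knockout aorta. Of 12 endothelial markers none was called, but 8 were lower at an unadjusted p under 0.05 in the average and 7 in MR-intact aorta, with mean levels of 8.36 to 8.59 in young MR-intact, 8.47 to 8.53 in young knockout, 8.19 to 8.28 in aged MR-intact and 8.18 to 8.53 in aged knockout aorta. Of 10 cardiac muscle markers none was called and 8 were lower at that p in the average, with mean levels of 6.14 to 8.45 in young MR-intact, 6.22 to 7.63 in young knockout, 5.82 to 6.28 in aged MR-intact and 5.84 to 6.37 in aged knockout aorta. The part of the fibroblast, endothelial and cardiac markers in the Wnt2b and Wnt5a results was not tested.

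**Figure D2:**
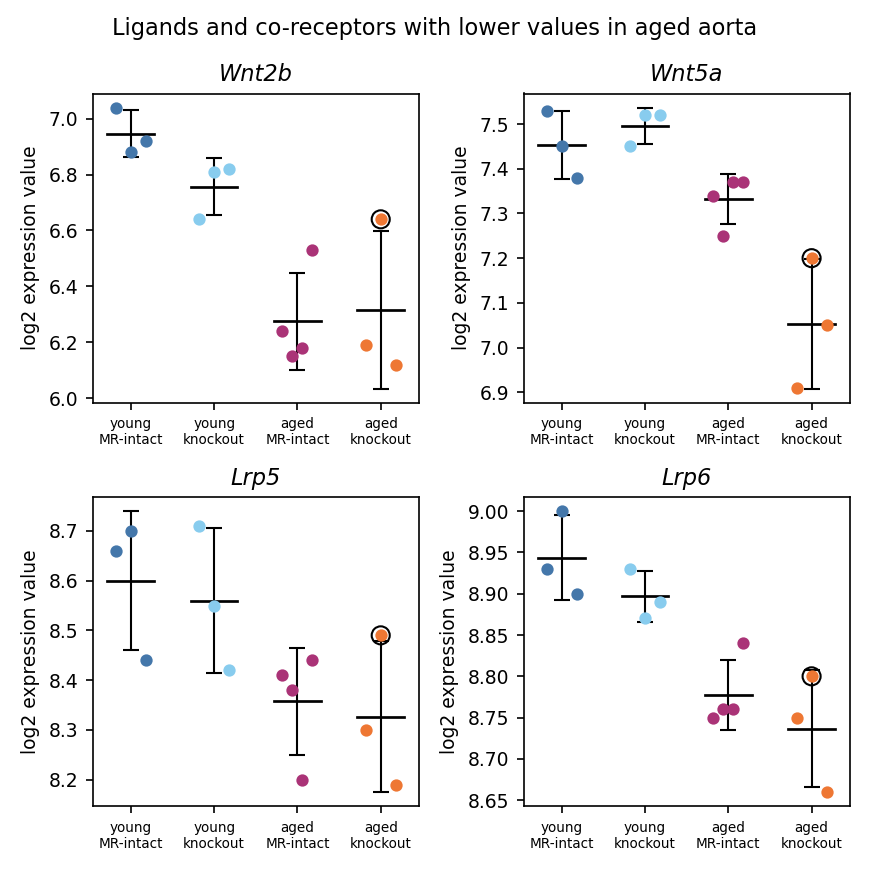
Log2 level (vertical axis) of the ligands Wnt2b and Wnt5a and the co-receptors Lrp5 and Lrp6 in the 4 groups (horizontal axis); points are arrays, bars the mean and SD, and the circled point is aged knockout replicate 2. Aged arrays lie below young arrays for Wnt2b, Wnt5a and Lrp6 and overlap them for Lrp5.

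The co-receptors Lrp5 and Lrp6, single-pass receptors that pair with Frizzled to carry the beta-catenin signal, had lower means in aged aorta of both genotypes, though neither passed the test over all genes. Lrp6 had values of 8.93, 9.0 and 8.90 in young MR-intact, 8.93, 8.87 and 8.89 in young knockout, 8.75, 8.76, 8.76 and 8.84 in aged MR-intact and 8.75, 8.80 and 8.66 in aged knockout aorta. No aged array reached a young array. The averaged Lrp6 difference was -0.16 (SE 0.04, limma adjusted p = 0.0889), and it was -0.16 in each genotype. Lrp5 had values of 8.66, 8.70 and 8.44 in young MR-intact, 8.71, 8.55 and 8.42 in young knockout, 8.41, 8.38, 8.20 and 8.44 in aged MR-intact and 8.30, 8.49 and 8.19 in aged knockout aorta. Here the groups overlapped, and the averaged difference was -0.24 (SE 0.07, limma adjusted p = 0.128), made of -0.24 without and -0.23 with the deletion. Wnt2b, Wnt5a and Lrp6 were the members whose 7 aged arrays all lay below the 6 young arrays, which is 7.14% of the 42 genes against 0.777% of all genes.

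At an unadjusted p under 0.05, 7 members were lower with age in the average over genotypes and none higher, where 7.31% of all genes were lower and 9.07% higher. Beside Wnt2b, Wnt5a, Lrp5 and Lrp6 these were the ligand Wnt9a (difference -0.17) and the receptors Fzd1 (-0.17) and Fzd8 (-0.24). Without young knockout replicate 2 there were 4 lower members and 1 higher. The median difference over the 42 genes was -0.02, and over all genes 0.01. Among the 19 ligands, 12 differences were negative and 7 positive, with a median of -0.02.

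In MR-intact aorta none of the 42 genes was called by limma, where 0.236% of all genes were, and 7 had an unadjusted p under 0.05. The 5 lower ones were Wnt2, Wnt2b, Wnt9b, Lrp5 and Lrp6, or 11.9% of the members against 4.14% of all genes, and the 2 higher ones were Sfrp4 and Wif1, or 4.76% against 4.49%. When young MR-intact replicate 2 was left out, only Wnt2b was lower at that p and none was higher, where 3.22% of all genes were lower. Without young knockout replicate 2 or aged MR-intact replicate 1, 3 or 4 there were 3 lower members. The aged values lay wholly below the young ones for Wnt2, Wnt2b, Wnt5a and Lrp6, which is 9.52% of members against 4.8% of all genes. Wif1, Wnt inhibitory factor, which binds Wnt proteins directly, had the largest positive difference. Its values were 6.09, 5.83 and 6.15 in young and 6.86, 6.29, 6.85 and 7.11 in aged MR-intact aorta, with no overlap. That difference was 0.76 (SE 0.35, limma adjusted p = 0.576). Dkk3, a divergent Dickkopf whose effect on Wnt signalling is less clear than that of its relatives, likewise had values of 8.79, 8.79 and 8.88 in young and 9.32, 8.92, 9.17 and 9.18 in aged MR-intact aorta, again without overlap, and its difference of 0.33 (SE 0.22) did not pass (limma adjusted p = 0.772). These were the 2 members whose aged MR-intact arrays lay wholly above the young ones, 4.76% against 6.05% of all genes. With age in knockout aorta the difference was -0.28 for Wif1 and -0.41 for Dkk3, and it was 0.28 and -0.03 without aged knockout replicate 2.

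In knockout aorta, 10 members had an unadjusted p under 0.05 with age, all of them lower: Wnt2b, Wnt5a, Wnt16, Fzd1, Fzd8, Lrp5, Lrp6, Sfrp1, Sfrp2 and Frzb. That is 23.8% of the 42 genes against 6.76% of all genes that were lower and 9.07% that were higher. The count of lower members was 5 without young knockout replicate 2 (4.81% of all genes) and 6 without young knockout replicate 1 (5.35%) or 3 (6.12%), and it was 12, with 1 member higher, without aged knockout replicate 1 (7.73%). For 9 members the aged knockout arrays lay wholly below the young knockout arrays, or 21.4% against 8.38% of all genes. Wnt2 went the other way, with its aged knockout arrays wholly above the young ones, or 2.38% of members against 8% of all genes. Only Wnt5a was called. The next by p was Fzd1, a receptor for Wnt proteins, with a difference of -0.38 (SE 0.10, limma adjusted p = 0.0988), and it was -0.45 with an adjusted p of 0.0339 when aged knockout replicate 3 was left out. Over all genes that fit called 885, against 156 with all arrays.

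**Figure D3:**
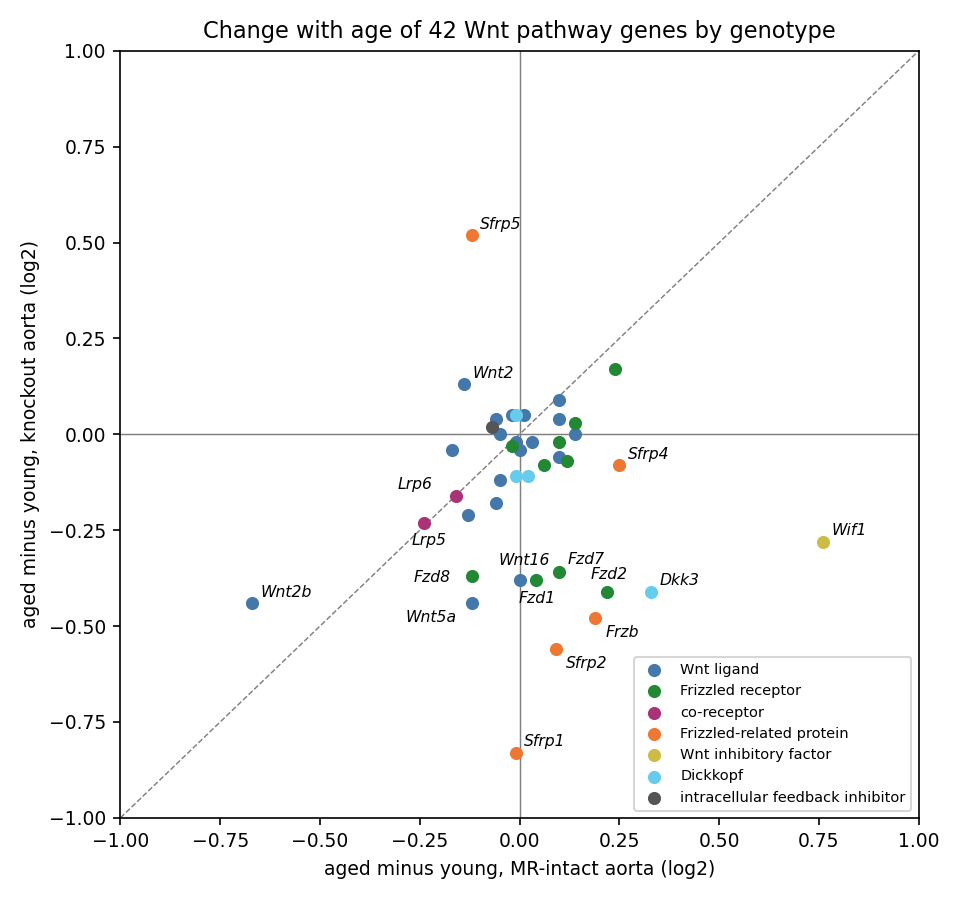
Log2 difference between aged and young aorta of each of the 42 genes in MR-intact (horizontal axis) and knockout mice (vertical axis), coloured by role; the dashed line marks equal differences and named points are genes far from the origin. Lrp5, Lrp6 and Wnt2b lie below zero on both axes, whereas Wif1, Dkk3, Frzb and Sfrp4 lie right of zero and below it with all arrays in the fit; without aged knockout replicate 2 the vertical value is 0.28 for Wif1, -0.03 for Dkk3 and -0.21 for Frzb.

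The second comparison asked what loss of the smooth muscle receptor did to these genes at each age. In young aorta none of the 42 genes was called by limma, and 0% of all genes were. At an unadjusted p under 0.05 there were 2 members, against 2.59% of all genes. Wnt2, a ligand that signals through beta-catenin, had values of 5.43, 5.33 and 5.31 in MR-intact aorta against 5.21, 5.14 and 5.19 with the deletion (difference -0.18, SE 0.07). Wnt7b, a ligand known from epithelium and lung, had values of 4.72, 4.72 and 4.68 in MR-intact aorta against 4.99, 4.86 and 4.79 with the deletion (difference 0.17, SE 0.07). Without young MR-intact replicate 1 no member had an unadjusted p under 0.05, and without young MR-intact replicate 3 or young knockout replicate 1 or 2 there was 1. Groups did not overlap for Wnt2 and Wnt2b, which were lower in the knockout, or 4.76% of members against 4.06% of all genes. They did not overlap either for Wnt7b and Dkk3, which were higher, or 4.76% against 5.43%. Both shares are near those of all genes, and with 3 arrays against 3 the exact permutation test cannot go below p = 0.1, the value all 4 genes gave. The third by p was Dkk1, a Dickkopf that binds Lrp5 and Lrp6, with values of 4.66, 4.75 and 4.75 in MR-intact aorta against 5.19, 4.75 and 4.87 with the deletion. Its difference of 0.21 rested mostly on the first knockout array.

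In aged aorta no member was called by limma either, where 0.0565% of all genes were. The 10 members with an unadjusted p under 0.05 were all lower in the knockout, 23.8% of the 42 genes against 9.06% of all genes that were lower and 8.58% that were higher. They were 1 ligand (Wnt5a), 4 Frizzled receptors (Fzd1, Fzd2, Fzd7 and Fzd8) and 5 secreted antagonists (Sfrp1, Sfrp2, Frzb, Wif1 and Dkk3). Dropping aged MR-intact replicate 4 left 5 lower members, in a fit where 6.78% of all genes were lower at that p. Dropping replicate 1 of the same group left 6 (6.86% of all genes). Dropping aged knockout replicate 2 left 4 (5.24%). A fit lacking aged MR-intact replicate 2 had 11 lower members (10.7%) and 5 higher. In these fits the share of all genes that were lower fell and rose along with the counts. Elsewhere it did not: the count was 10 without aged MR-intact replicate 3 (7.49% of all genes). It was also 10 without aged knockout replicate 3 (11.5%). Of the 10 members found with all arrays, all but Wnt5a had their lowest value of the 13 arrays on aged knockout replicate 2. The knockout arrays lay wholly below the MR-intact arrays for Wnt3, Wnt5a, Fzd1, Fzd8, Sfrp2 and Frzb, or 14.3% of members against 5.11% of all genes. This comparison shares its aged MR-intact arrays with aging in MR-intact aorta and its aged knockout arrays with aging in knockout aorta, so the 3 sets of differences are not independent.

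Frzb, a secreted Frizzled-related protein first known from cartilage, had the lowest p. Its values were 7.73, 7.08, 7.33 and 7.49 in aged MR-intact and 6.98, 6.07 and 6.78 in aged knockout aorta. All 3 knockout arrays were below all 4 MR-intact arrays, with replicate 2 the lowest. The difference was -0.80 (SE 0.19, 95% confidence interval -1.22 to -0.38) with a limma adjusted p of 0.0791. Without aged knockout replicate 2 it was -0.53 (SE 0.15, adjusted p = 0.172), and without aged knockout replicate 3 it was -0.89 (SE 0.22, adjusted p = 0.0361). The fit without replicate 3 called 1442 of all genes. In the authors' deposited table Frzb has a signed fold of -1.7 with an unadjusted p of 0.00832 for this comparison, and in the same table Wnt2b has -1.59 with 1.16e-04 for aged against young MR-intact aorta. For aged knockout against aged MR-intact aorta, 6 of the 42 genes have an authors' unadjusted p under 0.05, against 12.1% of all genes. Fzd2 (0.0745), Fzd7 (0.0995), Wif1 (0.0646) and Dkk3 (0.0819) are not among those 6. In young aorta Frzb had values of 7.31, 7.18 and 7.18 without the deletion and 6.97, 7.23 and 7.07 with it, which overlapped.

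Sfrp1 and Sfrp2, Frizzled-related proteins that bind Wnt ligands or Frizzled receptors, showed how much of the difference lay on 1 array. Sfrp1 had values of 9.01, 8.80, 9.15 and 9.06 in aged MR-intact and 8.65, 7.32 and 8.80 in aged knockout aorta. Its difference was -0.75 (SE 0.27, limma adjusted p = 0.18), and -0.28 (SE 0.13, adjusted p = 0.438) without aged knockout replicate 2. Sfrp2 had values of 11.28, 11.04, 11.09 and 11.15 in aged MR-intact and 10.87, 10.04 and 10.75 in aged knockout aorta, and these did not overlap. Its difference was -0.59 (SE 0.18, limma adjusted p = 0.121), and -0.33 (SE 0.13, adjusted p = 0.342) without that array.

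Wif1 had values of 6.37, 4.77 and 6.56 in aged knockout aorta, of which only the 4.77 of replicate 2 lay below the values of young aorta. Its knockout difference in aged aorta moved from -0.88 (SE 0.35) to -0.31 (SE 0.20) without that array. For Dkk3, with 9.06, 7.85 and 8.92 in aged knockout aorta, the difference moved from -0.54 (SE 0.22) to -0.16 (SE 0.10). Sfrp4, a Frizzled-related protein, did not share this low value: it had 9.0, 9.01 and 9.02 in aged knockout and 9.38, 9.13, 8.93 and 9.32 in aged MR-intact aorta. Sfrp5, a Frizzled-related protein known from adipose tissue, was high on the same array, with 5.16, 6.86 and 5.27 in aged knockout aorta and 4.81 to 5.75 on the other 10 arrays. The mean level of 12 adipocyte markers was 11.21 on that array and 10.65 to 11.04 on the other 12. The means of the liver and of the Schwann and neuronal markers were also highest on it, as were 19.8% of all genes. The part of any of these markers in the Sfrp5 value was not tested.

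**Figure D4:**
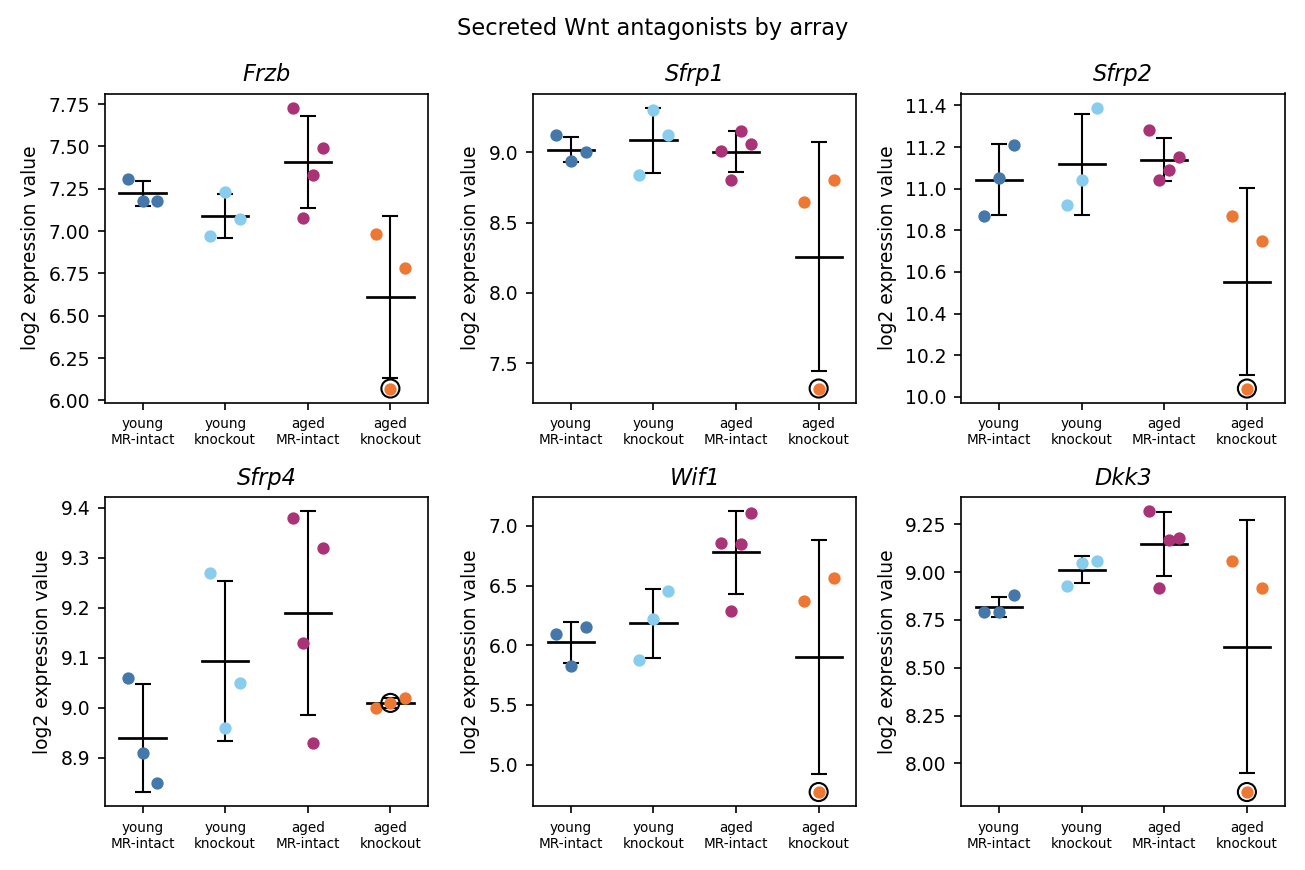
Log2 level (vertical axis) of 6 secreted antagonists in the 4 groups (horizontal axis); points are arrays, bars the mean and SD, and the circled point is aged knockout replicate 2. That array is the lowest of all 13 for Frzb, Sfrp1, Sfrp2, Wif1 and Dkk3 and not for Sfrp4.

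Of the 10 Frizzled receptors, 4 (Fzd1, Fzd2, Fzd7 and Fzd8) were lowest on the same array, aged knockout replicate 2. The knockout difference in aged aorta was negative for 6 receptors and positive for 4. Fzd1 had values of 8.21, 8.18, 8.06 and 8.32 in aged MR-intact and 7.96, 7.67 and 8.03 in aged knockout aorta, without overlap. The difference was -0.31 (SE 0.09, limma adjusted p = 0.118), -0.20 (SE 0.08, adjusted p = 0.36) without aged knockout replicate 2, and -0.38 (SE 0.10, adjusted p = 0.0394) without aged knockout replicate 3. Fzd2, another Frizzled receptor, had values of 8.84, 8.49, 8.54 and 8.85 in aged MR-intact and 8.49, 7.25 and 8.49 in aged knockout aorta, where replicate 2 alone stood well below the rest. Its difference moved from -0.60 (SE 0.24) to -0.19 (SE 0.11) without that array. Fzd7 moved likewise from -0.37 to -0.14, and Fzd8, with 7.60, 7.48, 7.45 and 7.77 in MR-intact aorta against 7.35, 7.13 and 7.41 with the deletion, from -0.28 to -0.20.

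Wnt5a differed from these genes in which array was low. Its aged knockout values of 6.91, 7.20 and 7.05 were lowest on replicate 1 and highest on replicate 2. The knockout difference in aged aorta was -0.28 (SE 0.07, limma adjusted p = 0.0943), and -0.35 (SE 0.07, adjusted p = 0.109) without replicate 2. Leaving out that array left 4 members with an unadjusted p under 0.05, namely Wnt5a, Fzd1, Sfrp2 and Frzb, all lower, and none called. Leaving out aged knockout replicate 3 instead gave 3 calls, Fzd1, Frzb and Sfrp1 (Sfrp1 at -1.02, adjusted p = 0.0466). Over all 21225 genes that fit called 1442, against 12 with all arrays.

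Aged knockout replicate 2 held the lowest of the 13 values for 10 of the 42 genes, or 23.8%, and for 17.2% of all genes. It held the highest value for 6 members, Wnt1, Wnt3a, Wnt10a, Sfrp5, Dkk4 and Axin2, or 14.3% against 19.8% of all genes. In the aged comparison 11 of 12 smooth muscle markers and 9 of 15 fibroblast markers also had an unadjusted p under 0.05 and were lower in the knockout, and 11 of 11 B lymphocyte and plasma cell markers were higher. Of 11 T lymphocyte markers, 8 were higher and 1 was lower at that p. Smooth muscle marker means ranged over 10.27 to 10.62 in aged MR-intact and 9.75 to 10.33 in aged knockout aorta, and fibroblast marker means over 9.30 to 9.43 and 8.99 to 9.20. The part of those markers in the lower levels of the Frizzled receptors and antagonists named above was not tested.

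**Figure D5:**
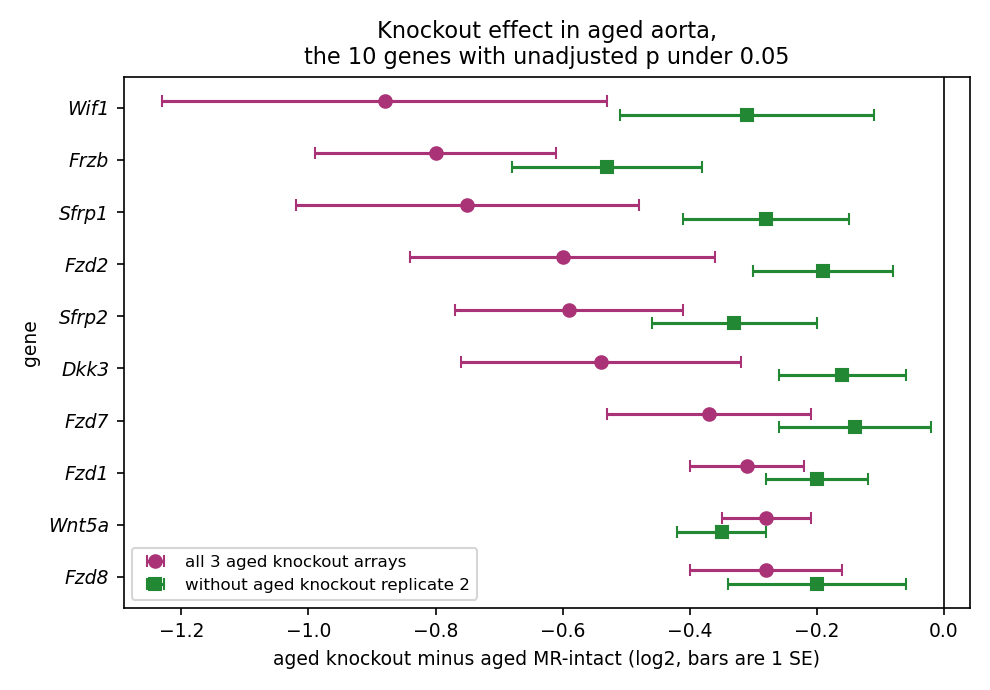
Log2 difference between aged knockout and aged MR-intact aorta (horizontal axis, bars 1 SE) of the 10 genes with an unadjusted p under 0.05, with all 3 aged knockout arrays (circles) and without replicate 2 (squares). All 10 are below zero in both fits, and Wnt5a is the gene whose difference is larger without that array (-0.35 against -0.28).

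Averaged over both ages, none of the 42 genes was called for the knockout by limma, and 0% of all genes were. At an unadjusted p under 0.05 there were 4 members, Wnt5a and Frzb lower and Wnt6 and Wnt7b higher, or 9.52% of the 42 against 10.9% of all genes, a share near that of all genes. Without single arrays the count ranged from 2 to 9, with 9 without aged knockout replicate 3. It was 7 without aged MR-intact replicate 2, and 2 when young MR-intact replicate 1 or 2, young knockout replicate 1 or aged MR-intact replicate 1, 3 or 4 was dropped. The averaged difference was -0.47 (SE 0.14, limma adjusted p = 0.334) for Frzb and 0.13 (SE 0.05, adjusted p = 0.384) for Wnt7b. Wnt6, a ligand in the dimmest tercile, had a difference of 0.18 (SE 0.08, adjusted p = 0.456).

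The last comparison asked whether aging differed between genotypes. None of the 42 genes passed in limma, and 0% of all genes did. At an unadjusted p under 0.05 there were 6 members, Wnt2, Wnt5a, Fzd1, Sfrp2, Frzb and Dkk3, or 14.3% against 8.12% of all genes. That count ranged from 4 to 11 with single arrays left out, with 10 without aged knockout replicate 3 and 11 without aged knockout replicate 1. Of these, 9 and 10 were lower, in fits where 7.02% and 6.52% of all genes were lower. That share was 2.78% without young MR-intact replicate 2, where the count was 4. All 10 Frizzled differences were negative, that is, lower with age in knockout than in MR-intact aorta, with a median of -0.17 and a range of -0.63 to -0.01. The lowest was that of Fzd2, which was -0.22 without aged knockout replicate 2, and Fzd7 moved from -0.46 to -0.23 without that array. With single arrays left out, 8 to 10 of the 10 were negative, and the 8 came without young MR-intact replicate 3, young knockout replicate 2 or aged knockout replicate 3. Over all 42 members 30 differences were negative and 12 positive, with a median of -0.09 against 0.00 over all genes. Among the 10 receptors Fzd1 alone had an unadjusted p under 0.05 by limma. The lowest p was that of Fzd1 (difference -0.42, SE 0.13, adjusted p = 0.609). Wnt2 went the other way: its aged values were 5.18, 5.19, 5.27 and 5.22 in MR-intact aorta against 5.40, 5.29 and 5.23 with the deletion, so that the change with age was -0.14 without and 0.13 with the deletion. The difference between them was 0.27 (SE 0.09, limma adjusted p = 0.609).

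Axin2, a scaffold of the beta-catenin destruction complex that is itself switched on by beta-catenin, was called in no comparison. Its values were 6.34, 6.39 and 6.39 in young MR-intact, 6.48, 6.39 and 6.39 in young knockout, 6.19, 6.51, 6.14 and 6.37 in aged MR-intact and 6.16, 6.64 and 6.53 in aged knockout aorta. All 4 groups overlapped. The averaged difference with age was -0.02 (95% confidence interval -0.20 to 0.15) and the averaged knockout difference 0.10 (95% confidence interval -0.08 to 0.27), neither called by limma (adjusted p = 0.936 and 0.652). The age difference was 0.05 without aged knockout replicate 1.

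Of the other ligands, Wnt3a, Wnt4, Wnt5b, Wnt8a, Wnt9a, Wnt9b, Wnt10a, Wnt10b, Wnt11 and Wnt16 were measured above the dimmest tercile and none was called in any of the 7 limma comparisons. Wnt10a, known for its roles in skin and teeth, varied within groups, from 5.39 to 5.52 in young MR-intact, 5.47 to 6.19 in young knockout, 5.21 to 6.12 in aged MR-intact and 5.41 to 6.24 in aged knockout aorta. Wnt16, known for its role in bone, had 7.36 to 7.40 in young MR-intact, 7.40 to 7.72 in young knockout and 7.07 to 7.65 in aged MR-intact aorta, and 7.40, 6.70 and 7.26 in aged knockout aorta, where replicate 2 was again the lowest. Over the 13 arrays Wnt4, known from kidney and gonad development, ranged from 4.45 to 4.97, and Wnt11, known from heart development, from 5.96 to 6.27. Wnt9a ranged from 5.88 to 6.45, Wnt9b, known from kidney development, from 4.98 to 5.32, and Wnt5b, a close relative of Wnt5a, from 5.18 to 5.82. Wnt3a, Wnt8a and Wnt10b, ligands of the beta-catenin branch, ranged from 4.71 to 5.37, 4.54 to 4.83 and 5.13 to 5.76. The ligands of the dimmest tercile ranged from 3.25 to 3.82 for Wnt1, 4.23 to 4.62 for Wnt3, 3.95 to 4.44 for Wnt6, 3.28 to 3.92 for Wnt7a and 3.02 to 3.41 for Wnt8b.

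Of the other receptors, Fzd4, a receptor for norrin as well as Wnt proteins and a regulator of retinal vessels, had values of 9.46 to 9.92 over the 13 arrays, and its groups overlapped in every comparison. Fzd6, a receptor of the polarity pathway, was the steadiest of those receptors, with 7.15 to 7.35. Fzd3, known for axon guidance, ranged over 4.71 to 5.53, Fzd5 over 5.99 to 6.30, Fzd9 over 5.33 to 5.82 and Fzd10 over 4.85 to 5.36, and none of these had an unadjusted p under 0.05 in any comparison. The Dickkopf proteins Dkk1, Dkk2 and Dkk4, which bind Lrp5 and Lrp6, ranged over 4.63 to 5.19, 4.91 to 5.27 and 4.01 to 4.39.

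Genes that act before or after these 42 were described from lists of the pathway, 75 genes in all. Over all comparisons limma called 1 of them, for aging in MR-intact aorta, where 0.236% of all genes were called. The share of all genes called was 0.735% for aging in knockout aorta and 1.49% for aging averaged over genotypes. For the knockout effect in aged aorta it was 0.0565%, and in the remaining comparisons 0%. Rspo3, an R-spondin that raises Frizzled levels at the cell surface by way of Lgr receptors, rose with age in MR-intact aorta. Its values were 5.38, 5.33 and 5.60 in young and 6.04, 6.11, 6.00 and 6.23 in aged MR-intact aorta, with no overlap, and 5.32, 5.42 and 5.68 in young and 5.78, 5.33 and 5.61 in aged knockout aorta, which overlapped. The rise in MR-intact aorta was 0.66 (SE 0.12, limma adjusted p = 0.0497). This call sat at the threshold: its adjusted p lay between 0.0576 and 0.283 when young MR-intact replicate 1 or 2, young knockout replicate 1 or 2, any aged MR-intact array or aged knockout replicate 3 was left out, with differences of 0.61 to 0.69. The call was also lost with repeated quantile normalization (adjusted p = 0.092), with median centring (0.0518) and with the skeletal muscle marker mean as covariate (0.392), so that it held in 11 of 23 alternatives. The difference of aging between genotypes was -0.56 (SE 0.17, adjusted p = 0.609).

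No gene was called in any comparison among 4 genes of Wnt secretion and lipid attachment, 6 alternative Wnt receptors, 11 planar cell polarity genes, 14 intracellular transducers, 14 TCF/LEF factors and co-factors, 8 other extracellular inhibitors or 16 common targets of beta-catenin. Sostdc1, an antagonist of Wnt and BMP signals, had values of 4.57, 4.91, 4.58 and 4.61 in aged MR-intact and 6.99, 5.98 and 5.31 in aged knockout aorta, where it was highest on replicate 1. The difference was 1.42 (SE 0.28, limma adjusted p = 0.0605). Tcf7l1, a TCF factor that mostly represses targets, had 8.04, 7.90, 7.93 and 8.21 in aged MR-intact and 7.63, 7.34 and 7.71 in aged knockout aorta, without overlap (difference -0.46, SE 0.10, limma adjusted p = 0.0686). Rnf43, a ubiquitin ligase that removes Frizzled from the surface and is a target of beta-catenin, had 4.27, 4.28, 4.21 and 4.08 in aged MR-intact and 5.04, 4.63 and 4.54 in aged knockout aorta (difference 0.53, SE 0.12, limma adjusted p = 0.0728). Rnf43 was dim: of these values only the 5.04 lay above 4.64, the mean level that bounds the dimmest tercile. All 3 of these differences missed the threshold. On aged knockout replicates 1, 2 and 3 the mean of the B lymphocyte and plasma cell markers was 8.85, 7.16 and 7.07. That of the T lymphocyte markers was 7.34, 6.81 and 6.11. For smooth muscle markers the mean was 10.33, 9.75 and 10.24, and for fibroblast markers 9.19, 8.99 and 9.20. The part of these markers in the 3 differences was not tested.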

How the data were processed

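RNA of 13 aorta arrays was measured with biotin-labelled samples, per the labels. The authors deposited a log2 value for each gene on each array, made with RMA (background correction, quantile normalization and a probe summary) with affy and limma also named, per the submitters' processing notes; the sources used here give no versions, chip or chip definition. The 13 array columns were entered under another unit name only because their headers hold numbers; they are log2 values, as the second deposited table, which holds the same values rounded, shows. Per the file headers the authors also deposited mean log2 values per group, signed fold changes (a score) and unadjusted p-values for 4 comparisons, of which 2 are quoted. No value is a count, so depth does not apply, and the number of arrays limits the precision.

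Groups came from the genotype and age labels, and replicate numbers only name arrays. With limma 3.58.1 under R 4.3.3 (functions lmFit and eBayes), all 21225 genes of 13 arrays were fitted with a coefficient per group (9 residual and 3.41 prior degrees of freedom), without filter or further scaling. The 7 contrasts were aging in each genotype and averaged, knockout at each age and averaged, and their difference; tests were two-sided, with Benjamini-Hochberg adjustment over all genes at 0.05. Gene names were updated through RefSeq for 2545 of the 20768 IDs that matched, and 42 of 42 members matched. In each contrast called members are named, or the 3 with the lowest p where fewer than 3 were called; Axin2, Lrp5 and Lrp6 are always described, and Rspo3 is named as the called gene of the pathway lists. Members, pathway and marker lists and tests were chosen with earlier results of these data known. The fit was tested on simulated data. Alternatives were repeated quantile normalization, median centring, leaving out dim genes, array weights, fits of the compared groups only, a trended robust prior, the rounded table, leaving out arrays, and marker means as covariates.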

Additional observations from a re-analysis of the deposited data

Results flagged for a closer look

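In 42 tests of the highest or lowest of the 4 aged MR-intact arrays, 1 per gene, replicate 4 stood outside Dixon's limit of 0.829 for 2 genes, where chance alone flags about 1 in 20. Fzd9 was 5.38 on that array against 5.54 to 5.56 on the other 3, and Lrp6 was 8.84 against 8.75 to 8.76. Groups of 3 arrays were not tested.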

How the results depend on the processing

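No difference of the genes named by the rule on calls and lowest p changed sign in the alternatives run; other differences described in the report did, with single arrays left out, such as those with age of Axin2 in the average (-0.02, and 0.05 without aged knockout replicate 1) and of Wif1 in knockout aorta (-0.28, and 0.28 without aged knockout replicate 2). None of the 42 genes was called in any of them for the knockout effect in young aorta, the knockout effect averaged over ages or the difference of aging between genotypes. For aging in MR-intact aorta the count of members called was 0 as reported and 1 (Wnt2b) with median centring, without the dimmest tercile, with the trended robust prior and without both aged knockout replicates 1 and 2, and 2 (Wnt2b and Wif1) with array weights; without single arrays it ranged from 0 to 1, and was 1 without aged MR-intact replicate 4 or aged knockout replicate 2 or 3. For aging in knockout aorta it was 1 as reported and 0 with only the groups compared in the fit, without both aged knockout replicates 1 and 2, and with the B lymphocyte or the skeletal muscle marker mean as covariate; without single arrays it ranged from 0 to 2, reaching 2 without aged knockout replicate 2 or 3. For aging averaged over genotypes it was 2 as reported, 3 with median centring or with array weights (Lrp6 added in both), 0 with either covariate, and 1 to 2 without single arrays. For the knockout effect in aged aorta it was 0 as reported and 0 to 3 without single arrays, reaching 3 without aged knockout replicate 3. The cause was not tested. Over all genes the count called ranged from 7 to 489 for aging in MR-intact aorta, 1 to 885 for aging in knockout aorta, 50 to 767 for aging averaged, 0 to 1442 for the knockout effect in aged aorta, 0 to 292 for that averaged over ages and 0 to 16 for the difference of aging between genotypes, against 50, 156, 316, 12, 0 and 0 as reported. Among the values of those named genes and Rspo3 under these alternatives, 450 kept their side of the threshold, 32 lost a call and 14 gained one. No paired analysis was possible because replicate numbers follow the order of deposit and the labels pair no arrays. Dim genes limit what can be seen for at least the 6 members of the dimmest tercile. That tercile is a cut on mean level and no detection call. Wnt4 (mean 4.69), Wnt7b (4.75), Wnt8a (4.75) and Dkk1 (4.80) lay just above its limit of 4.64.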

Other observations

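Values repeat across arrays for some genes, dim and bright: 23 of the 42 genes had 1 identical value, as deposited, on 2 or more arrays and 6 had it on 4 or more. Wnt8a read 4.77 on 5 arrays, and Fzd3, Fzd10, Wnt7a, Wnt7b and Wnt16 each had 1 value on 4 arrays. Aged MR-intact replicate 4 held the lowest of the 13 values for 10 members (23.8%, against 12.6% of all genes): Wnt1, Wnt3a, Wnt7a, Wnt7b, Wnt8b, Wnt10a, Wnt10b, Sfrp5, Dkk1 and Dkk4.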
